A study of Mus musculus with 15 samples.

Results

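Ribosome biogenesis genes were examined in MLL-ENL-transformed mouse fetal liver cells, with and without the transcription factors C/EBPα and C/EBPβ. The set holds 41 protein-coding genes that were chosen by symbol for the roles of their products in making ribosomes. The choice was made with earlier results of these data known. All 41 were found among the 53379 genes of the deposited RNA-seq table, and all 41 passed the filter on low values. They were ordered by role into 5 genes of RNA polymerase I transcription, 8 genes of the small nucleolar ribonucleoproteins (snoRNPs), 6 genes of abundant nucleolar proteins with several roles, 11 genes of small-subunit assembly and 11 genes of large-subunit assembly.

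Ribosomes are built in the nucleolus, where RNA polymerase I copies the ribosomal DNA into a long precursor RNA. The snoRNPs modify this precursor and guide its cleavage, and many assembly factors then fold and trim the pre-ribosomal particles until they leave for the cytoplasm. Many of the genes involved are well known targets of the transcription factor Myc, and their products are abundant in growing and in leukemic cells.

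WTFL cells carried floxed Cebpa and Cebpb alleles (wild-type in the labels), were transformed by retroviral MLL-ENL and were kept in 10 ng/ml IL-3. From each of 2 mice, clones C1 and C2, Cre treatment had left surviving subclones without Cebpa and Cebpb, and 1 such subclone per mouse was profiled as dKO cells, which also carried a GFP vector. In C1, dKO cells with a vector that encodes GFP and the rat C/EBPβ isoform LAP* were profiled as dKO-LAP* cells. Each of the 5 groups has 3 libraries, which are replicates of a cell line and not of an animal, so that the p-values measure the spread between these libraries. The loss of both genes, the passage through Cre treatment and subcloning, and the GFP vector cannot be told apart in the comparison of dKO with WTFL cells.

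The libraries held 9212237 to 13613500 reads on genes. Values are normalized read counts, which are reads per gene divided by a size factor for each library. Cebpa and Cebpb were at 0 in all 6 dKO libraries and between 902.8 and 2267 normalized reads in the 6 WTFL libraries. Cebpb reads were at 2538 to 4216 in the dKO-LAP* libraries. Of 8 myeloid progenitor markers, Ptprc, Spi1, Kit, Fcgr3, Itgam, Mpo and Elane were detected in every library. Cd34 was near 0 in WTFL cells (means of 5.21 in C1 and 1.01 in C2) and at 2623 and 6365 in dKO cells. The summed level of the 8 markers, of which Mpo and Elane held the most, ran from 53605 to 65910 normalized reads in WTFL cells and from 108629 to 159307 in dKO cells. No lymphoid marker used was above 2.10 and no erythroid marker above 17.4 normalized reads in any library, and the hepatocyte markers Alb, Apoa1 and Ttr were at 0. The 4 hepatocyte markers, of which only Afp was above 0, summed to 27.1 to 165 normalized reads in WTFL and 7.06 to 83.7 in dKO cells. The 4 stroma markers, with Cdh5 at 0, summed to at most 12.6 in WTFL and, mainly from Pdgfrb, to 48.7 to 107 in dKO cells. The part of these shifts in the results was not tested.

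Promoter sequence was available from RefSeq (GRCm38.p6) for 36 of the 41 genes, as windows from 250 bases before to 50 bases after a transcript start. Windows were not at hand for Fbl, Npm1, Rrp12, Bop1 and Rrs1. The E-box CACGTG, the motif that Myc and Max bind and which reads the same on both strands, was found in the windows of 9 of 36 genes (25.0%), against 12.01% of the 9415 tested genes with a window and 8.09% of all 27025 genes in the promoter table. Its matches are shown because 6 of these 9 genes rose in C2 dKO cells by limma. Of the 41 genes 46.3% rose there, and of all genes tested 17.4%. When values were scaled to total reads, Utp20 and Wdr43 of the 6 kept their call, and Nle1, Mybbp1a, Nop2 and Tsr1 lost it. A link of the E-box to the rise was not tested. Each line gives 30 bases on the strand of the gene with the E-box in capitals.
Utp20, chr10:88826765-88826794, minus strand: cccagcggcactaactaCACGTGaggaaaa
Wdr43, chr17:71616220-71616249, plus strand: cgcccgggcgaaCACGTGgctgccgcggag
Nle1, chr11:82908355-82908384, minus strand: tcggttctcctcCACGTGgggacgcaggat
Mybbp1a, chr11:72441347-72441376, plus strand: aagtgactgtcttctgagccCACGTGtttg
Nop2, chr6:125131811-125131840, plus strand: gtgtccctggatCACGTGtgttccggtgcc
Tsr1, chr11:74898092-74898121, plus strand: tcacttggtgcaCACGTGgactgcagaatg
Pes1, chr11:3963965-3963994, plus strand: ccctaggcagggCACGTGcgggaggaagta
Ltv1, chr10:13193092-13193121, minus strand: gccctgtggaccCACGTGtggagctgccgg
Rrn3, chr16:13780472-13780501, plus strand: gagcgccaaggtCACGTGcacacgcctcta
Rrn3, chr16:13780639-13780668, plus strand: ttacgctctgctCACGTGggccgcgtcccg

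The E-box began downstream of the transcript start in 7 of the 9 genes, within 41 bases, and upstream of it in Nop2 and Rrn3. A second motif, CCGGAAG on either strand, which is bound by ETS factors, was in the windows of 13 of 36 genes (36.1%), against 21.3% of tested genes and 9.93% of all genes. The C/EBP motif TTGCNNAA, searched on both strands, was in the windows of 3 of 36 genes (8.33%), against 10.3% and 12.2%. No matches of different motifs overlapped in these windows (0 cases). In 8 genes a match to the ETS motif began 1 to 27 bases before the start, and these sites are shown, with the match of Rrn3 on the reverse strand. Of these genes, Heatr1 and Tsr1 rose in C2 by limma, and Tsr1 was not called under scaling to total reads.
Tsr1, chr11:74898068-74898097, plus strand: ctcgggtccgcCCGGAAGtagagttcactt
Noc2l, chr4:156236002-156236031, plus strand: gcattctgggcCCGGAAGtgcggcgcacgc
Ebna1bp2, chr4:118620785-118620814, plus strand: caacgagaaaaCCGGAAGtgcggctatgaa
Rrn3, chr16:13780683-13780712, plus strand: ctgcagcgccaCTTCCGGggcgggtaggtc
Nolc1, chr19:46075822-46075851, plus strand: cgcgtgtgggaCCGGAAGcaacttctagat
Heatr1, chr13:12395348-12395377, plus strand: gtagtgagaagCCGGAAGttcctatgaggc
Nhp2, chr11:51619739-51619768, plus strand: cacttgaaaacCCGGAAGtgatgtcggagg
Wdr74, chr19:8735801-8735830, plus strand: gtagtggcgcgCCGGAAGtgcaagccacgg

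Together the 41 genes took 0.855% ± 0.0774 (SD, n = 3) of the reads on genes in C1 WTFL cells and 0.852% ± 0.0324 in C1 dKO cells. The share was 0.983% ± 0.0147 in C1 dKO-LAP* cells. In C2 it was 0.897% ± 0.0704 in WTFL and 1.17% ± 0.0846 in dKO cells. The WTFL and dKO libraries of C1 overlapped, whereas all 3 dKO libraries of C2 (1.097% to 1.263%) lay above the WTFL libraries (0.818% to 0.953%). Without Ncl and Npm1, which held the most reads per kb of exon (7630 normalized reads per kb for Npm1 and 2336 for Ncl, mean of 15 libraries), the shares in C2 were 0.555% ± 0.0341 and 0.708% ± 0.0601.

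**Figure D1:**
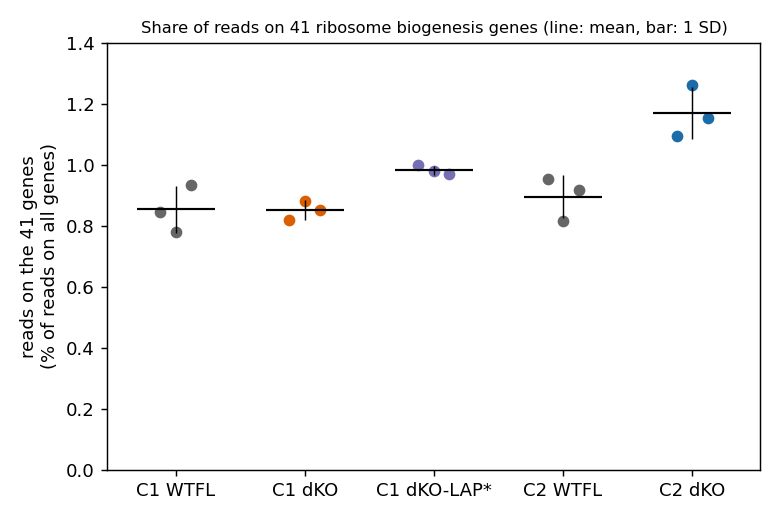
Share of reads on the 41 ribosome biogenesis genes, in percent of the reads on all genes (y axis), for the 3 libraries (points) of each group (x axis), with the mean (line) and 1 SD (bar). C2 dKO cells had a mean of 1.17%, above all other groups, and the WTFL and dKO libraries of C1 overlapped.

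The first comparison asked how the genes changed with loss of Cebpa and Cebpb in each clone. In C1 few did. By limma at a Benjamini-Hochberg adjusted p under 0.05, none of the 41 genes was higher in dKO cells (0, against 17.1% of all genes tested) and 2 were lower (4.88%, against 19.9% of all genes). At an unadjusted p under 0.05, 1 was higher (against 21.2% of all genes) and 8 were lower (against 24.1%). With the adjusted p, edgeR and DESeq2 on the recovered reads gave 0 higher and 2 lower as well. With the unadjusted p, each gave 1 higher and 3 lower. The 2 genes were Dkc1 and Ddx21. The lower count was 4 without WTFL library 2 and 6 without dKO library 2, and the higher count was 1 without WTFL library 3. The groups did not overlap in 1 gene that was higher (Gnl3, 2.44%, against 21.7% of all genes) and in 6 that were lower (14.6%, against 23.5%). The median log2 difference of the 41 genes was -0.07, against -0.01 for all genes, and 9 genes were above zero. Without WTFL library 2 or dKO library 2 it was -0.12 or -0.11 with 7 genes above zero, and without WTFL library 3 or dKO library 1 it was -0.01 or -0.04 with 16 genes above zero. The sign of that median turned with the scaling. It was 0.02 with 26 genes above zero under quantile normalization and 0.00 with 21 genes above zero under scaling to total reads, settings under which the share of higher calls among all calls rose from 46.3% to 56.6% and 57.6%. The median of all genes moved as well, from -0.01 to 0.05 and 0.06, and the median of the 41 genes lay below it each time. Gnl3 under both settings and Wdr12 under quantile normalization were then also called higher, and Dkc1 and Ddx21 remained lower.

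Dkc1 (chrX:75095854-75109777, plus strand, mm10 as all gene positions below) encodes the pseudouridine synthase of the H/ACA snoRNPs. It was singled out after its values were seen. Its level was 2969, 2725 and 3006 normalized reads in C1 WTFL cells and 2088, 2158 and 2227 in C1 dKO cells. No library overlapped, and the log2 difference was -0.43 ± 0.07 (SE, limma adjusted p = 0.00012), a fold of 0.745. In C2, Dkc1 was at 5414, 6073 and 5505 in WTFL and 6542, 5864 and 6416 in dKO cells. These groups overlapped (log2 difference 0.15 ± 0.07, limma adjusted p = 0.1). All 6 libraries of C2 thus lay above all 9 libraries of C1.

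In C2 the set shifted upward. By limma, 19 of the 41 genes were higher in dKO than in WTFL cells (46.3%, against 17.4% of all genes tested) and 0 were lower (against 20.1%). At an unadjusted p under 0.05, 26 were higher (against 21.1% of all genes) and 0 lower (against 24.8%). edgeR and DESeq2 called 20 and 21 higher and 0 lower. The groups did not overlap in 24 genes, all higher in dKO cells (58.5%, against 23.7% of all genes), and 0 were lower without overlap (against 27.8%). The median log2 difference was 0.23, against -0.03 for all genes, and 38 of 41 genes were above zero, against 47.1% of all genes. Each role group held genes that rose: 2 of 5 of RNA polymerase I transcription, 2 of 8 of the snoRNPs, 5 of 6 nucleolar proteins, 5 of 11 of the small subunit and 5 of 11 of the large subunit. Of the 19 genes, 12 were called under each of 10 alternative settings, which leave out the limit on the fold change, and without each of the 6 libraries in turn (Polr1a, Nop58, Ncl, Ddx21, Gnl3, Utp20, Heatr1, Wdr43, Nob1, Wdr12, Rrs1 and Ddx18). The other 7 (Ubtf, Fbl, Npm1, Mybbp1a, Tsr1, Nop2 and Nle1) were called under 5 to 8 of the 10 settings and in 1 to 3 of the 6 fits without a library. Scaling to total reads lowered the count to these same 12 genes. In dKO library 2 of C2, 37 of the 41 genes had the highest level of the 3 dKO libraries, and without it 13 genes were called higher and Polr1e lower (log2 difference -0.40).

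**Figure D2:**
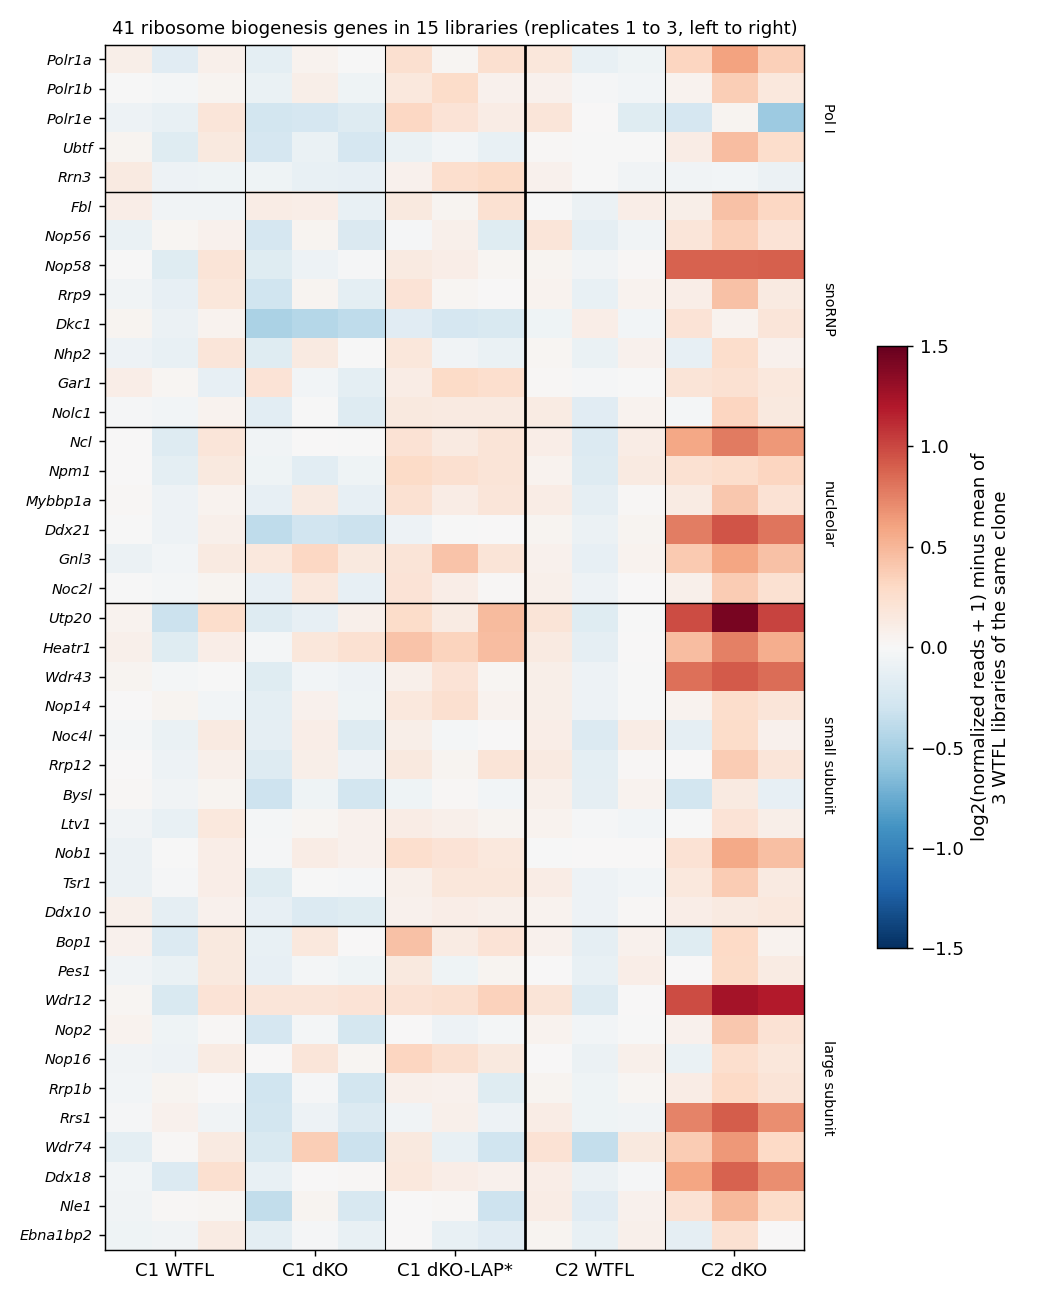
Level of each of the 41 genes (rows, by role) in each of the 15 libraries (columns), as the difference in log2(normalized reads + 1) from the mean of the 3 WTFL libraries of the same clone (color). Nop58, Ddx21, Utp20, Wdr43, Wdr12, Rrs1 and Ddx18 were high in all 3 C2 dKO libraries, and Dkc1 and Ddx21 were low in all 3 C1 dKO libraries.

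**Figure D3:**
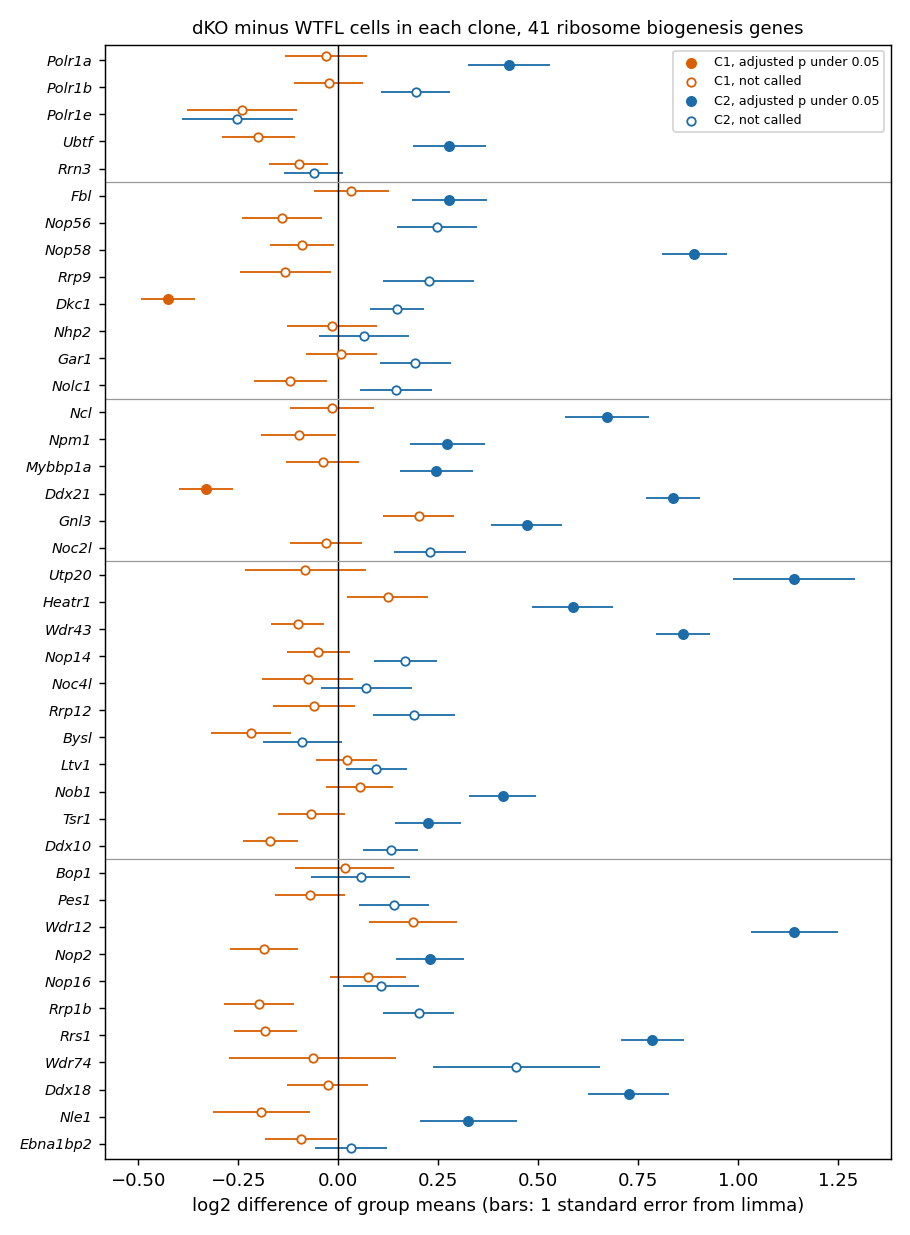
The log2 difference between dKO and WTFL cells (x axis, with 1 SE from limma) for each of the 41 genes (y axis) in C1 (orange) and C2 (blue), with filled points at an adjusted p under 0.05. In C2, 19 points to the right of zero are filled, and in C1 only Dkc1 and Ddx21 are filled, to the left.

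Among the genes of RNA polymerase I transcription, Polr1a, the largest subunit of the enzyme, rose in C2. Polr1a (chr6:71909053-71984935, plus strand) was at 1283, 1056 and 1086 normalized reads in WTFL and at 1417, 1730 and 1460 in dKO cells. All dKO libraries were higher, with a log2 difference of 0.43 ± 0.10 (limma adjusted p = 0.0039). Ubtf, the upstream binding factor of the ribosomal DNA and the gene of this role with the most reads per kb, was at 2246, 2206 and 2215 in C2 WTFL and at 2393, 3060 and 2671 in C2 dKO cells. Its log2 difference was 0.28 ± 0.09 (limma adjusted p = 0.025), and it lost its call in 5 of the 6 fits without a library. Rrn3, which recruits the polymerase to the promoter, had a log2 difference of -0.06 ± 0.07 and Polr1e, a further subunit, of -0.25 ± 0.14 in C2, and neither passed the test.

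Among the snoRNP genes, Nop58, a core protein of the box C/D particles that guide methylation, stood out. Nop58 (chr1:59684971-59719044, plus strand) was at 3282, 3074 and 3236 normalized reads in C2 WTFL and at 5922, 5903 and 5943 in C2 dKO cells. The groups were far apart, and the fold was 1.85 (log2 difference 0.89 ± 0.08, limma adjusted p = 4.9e-07). In C1 the levels of Nop58 were 3686, 3267 and 4227 in WTFL and 3268, 3528 and 3663 in dKO cells, which overlapped. Fbl, the methyltransferase of the same particles, rose by 0.28 ± 0.09 in C2 (limma adjusted p = 0.029), with 1 dKO library within the range of the WTFL libraries. Nop56, the partner of Nop58, had a log2 difference of 0.25 ± 0.10 and did not pass the test (limma adjusted p = 0.064). Of the H/ACA genes, Nhp2, which had the most reads per kb of this role, was at 1501, 1368 and 1541 in C2 WTFL and at 1346, 1757 and 1533 in C2 dKO cells, and Gar1 and Dkc1 were not called.

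Of the nucleolar proteins with several roles, Ddx21, an RNA helicase that acts in both polymerase I transcription and precursor processing, was the only gene called in opposite directions. Ddx21 (chr10:62580251-62602281, minus strand) was at 4583, 4370 and 4857 normalized reads in C1 WTFL and at 3538, 3761 and 3684 in C1 dKO cells, a log2 difference of -0.33 ± 0.07 (limma adjusted p = 0.0012). In C2 it was at 4857, 4430 and 4866 in WTFL and at 8038, 9047 and 8210 in dKO cells, a log2 difference of 0.84 ± 0.07 (limma adjusted p = 1.4e-07). The WTFL libraries of the clones thus covered like ranges, while the dKO libraries lay below them in C1 and above them in C2. Ncl, which encodes the abundant nucleolar protein nucleolin, was at 22248, 18018 and 22466 in C2 WTFL and at 31062, 35811 and 32730 in C2 dKO cells. All dKO libraries were higher (log2 difference 0.67 ± 0.11, limma adjusted p = 0.00012). Npm1, the histone chaperone nucleophosmin and the gene with the most reads per kb of the set, was at 20748, 17588 and 22051 in WTFL and at 23470, 24114 and 25092 in dKO cells of C2. Its log2 difference was 0.27 ± 0.09 (limma adjusted p = 0.031). Gnl3, the GTPase nucleostemin, was higher in dKO than in WTFL libraries of both clones without overlap, with a log2 difference of 0.20 ± 0.09 in C1 (limma adjusted p = 0.089) and 0.47 ± 0.09 in C2 (limma adjusted p = 0.0006).

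Among the small-subunit genes, 3 components of the early processome rose in C2, and Nop14 and Noc4l did not pass the test. Utp20 (chr10:88746607-88826804, minus strand) was at 1334, 1030 and 1161 normalized reads in WTFL and at 2298, 3140 and 2363 in dKO cells. The groups did not overlap, and the fold was 2.2 (log2 difference 1.14 ± 0.15, limma adjusted p = 2.6e-05). Wdr43 (chr17:71615895-71659031, plus strand), the gene of this role with the most reads per kb, was at 2416, 2159 and 2273 in WTFL and at 4054, 4317 and 4069 in dKO cells. Its log2 difference was 0.86 ± 0.07 (limma adjusted p = 8.2e-08). Heatr1 had a log2 difference of 0.59 ± 0.10 (limma adjusted p = 0.00028). Nop14 and Noc4l had log2 differences of 0.17 ± 0.08 and 0.07 ± 0.11 (limma adjusted p = 0.11 and 0.66). Of the late factors, Nob1, the endonuclease of the last cleavage of the small-subunit RNA, and Tsr1, a GTPase-like factor, rose by 0.41 ± 0.08 and 0.22 ± 0.08 (limma adjusted p = 0.0011 and 0.044). Tsr1 was called in 3 of the 6 fits without a library. Ltv1, Bysl and the export factor Rrp12, with log2 differences of 0.10, -0.09 and 0.19, did not pass the test.

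Among the large-subunit genes, Wdr12 of the PeBoW complex, which it forms with Pes1 and Bop1, rose most. Wdr12 (chr1:60069785-60098645, minus strand) was at 1459, 1112 and 1275 normalized reads in C2 WTFL and at 2510, 3032 and 2911 in C2 dKO cells. All dKO libraries were higher, at a fold of 2.2 (log2 difference 1.14 ± 0.11, limma adjusted p = 9e-07). Its partner Pes1, the gene of this role with the most reads per kb, was at 2088, 1932 and 2231 in WTFL and at 2087, 2542 and 2264 in dKO cells, which overlapped (log2 difference 0.14 ± 0.09). Bop1 had a log2 difference of 0.06 ± 0.12, and neither of these partners was called. Whether Wdr12 differed from them was not tested. Rrs1 (chr1:9545408-9547455, plus strand), which acts with the ribonucleoprotein of the smallest ribosomal RNA, was at 1264, 1121 and 1125 in WTFL and at 1963, 2201 and 1891 in dKO cells. It rose by 0.79 ± 0.08 (limma adjusted p = 1.4e-06). The helicase gene Ddx18 rose by 0.73 ± 0.10. Nop2, a methyltransferase of ribosomal RNA, and Nle1, a factor of late remodeling, rose by 0.23 ± 0.09 and 0.33 ± 0.12, near the threshold (limma adjusted p = 0.045 for each). Nop2 was called in 1 and Nle1 in 2 of the 6 fits without a library.

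**Figure D4:**
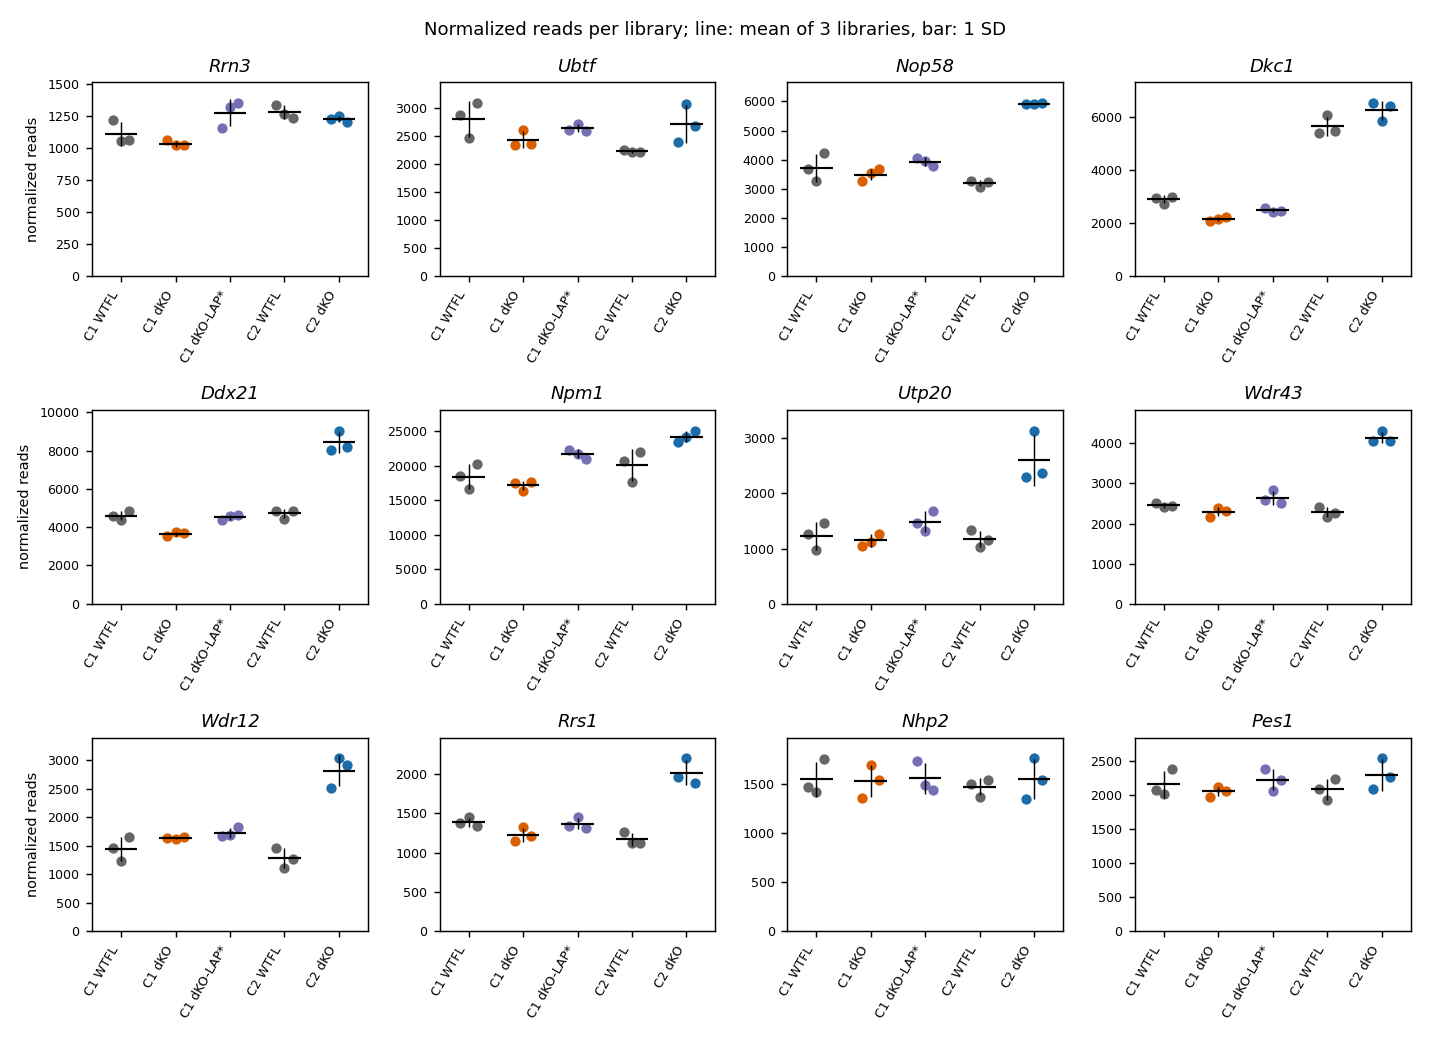
Normalized reads (y axis, from 0) of 12 of the genes in the 3 libraries (points) of each group (x axis), with the mean (line) and 1 SD (bar). For Nop58, Ddx21, Utp20, Wdr43, Wdr12 and Rrs1 all 3 C2 dKO libraries sat above the C2 WTFL libraries, Dkc1 and Ddx21 were lower in C1 dKO than in C1 WTFL cells, and Nhp2 and Pes1 overlapped between all groups of a clone.

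Whether the change with loss of Cebpa and Cebpb differed between the clones was tested directly, as the C2 difference minus the C1 difference. It was larger in C2 for 18 of the 41 genes (43.9%, against 15.1% of all genes tested) and smaller for 0 (against 14.3%), by limma. At an unadjusted p under 0.05, 23 genes had a larger difference in C2 (against 19.9% of all genes) and 0 a smaller (against 19.5%), and edgeR and DESeq2 called 18 and 19 larger and 0 smaller. Without C2 WTFL library 2, 11 were larger. The median of the difference between clones was 0.30 on the log2 scale, against 0.00 for all genes, and 40 of 41 genes were above zero. It fell to 0.19 with 34 genes above zero under quantile normalization and to 0.18 with 35 genes above zero under scaling to total reads. The largest values among the called genes were 1.22 ± 0.21 for Utp20 (limma adjusted p = 0.0005), 1.17 ± 0.10 for Ddx21 (limma adjusted p = 3.9e-07), 0.98 ± 0.11 for Nop58 (limma adjusted p = 1.3e-05), 0.97 ± 0.11 for Rrs1 (limma adjusted p = 1.2e-05), 0.96 ± 0.09 for Wdr43 (limma adjusted p = 2.4e-06) and 0.95 ± 0.15 for Wdr12 (limma adjusted p = 0.00025). Under scaling to total reads, which moved the median of all genes to -0.12 and the share of larger differences among all calls from 51.3% to 36.9%, and under quantile normalization, 9 of the 18 genes were called, namely these 6 with Dkc1, Ncl and Ddx18. Across the 41 genes, the C1 and C2 differences, which share no library, had a Pearson's r of 0.21 and a Spearman's rho of 0.14.

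Genes with an annotated snoRNA inside them on the same strand, called host genes here, were counted apart. In Nop56, Nop58, Ncl and Gnl3, snoRNAs of this kind overlapped annotated exons of the gene. Of 7 host genes (Nop56, Nop58, Dkc1, Ncl, Gnl3, Wdr43 and Tsr1), 5 rose in C2, with a median log2 difference of 0.47, and of the 34 other genes 14 rose, with a median of 0.21. Of all genes tested 17.4% rose in C2, with a median of -0.03. Exons of 18 genes overlapped an annotated gene on the opposite strand, and the strand setting of the read counting was not given in the sources used here. Of these 18 genes 8 rose in C2, and of the 23 others 11 rose, with a median of 0.23 in both. Of the 16 genes with a promoter window that rose in C2, 6 (37.5%) held the E-box and 3 (18.8%) the ETS motif CCGGAAG. Of the 20 others, 3 held the E-box and 10 the ETS motif.

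The effect of complementation was examined in C1, where dKO-LAP* cells were compared with dKO and with WTFL cells. These comparisons and that of dKO with WTFL cells share libraries. Against dKO cells, nearly all genes of the set lay slightly higher in dKO-LAP* cells. The median log2 difference was 0.19, against 0.00 for all genes, and 40 of 41 genes were above zero, against 49.6% of all genes. By limma, 2 genes were higher (4.88%, against 1.43% of all genes) and 0 lower (against 3.03%). At an unadjusted p under 0.05, 16 genes were higher (against 7.72% of all genes) and 0 lower (against 10.2%), and edgeR and DESeq2 each called 4 higher and 0 lower. The groups did not overlap in 17 genes, all higher in dKO-LAP* cells (41.5%, against 10.4% of all genes), and 0 were lower without overlap (against 13.7%). The median lay between 0.13 and 0.23 without each of the 6 libraries in turn.

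**Figure D5:**
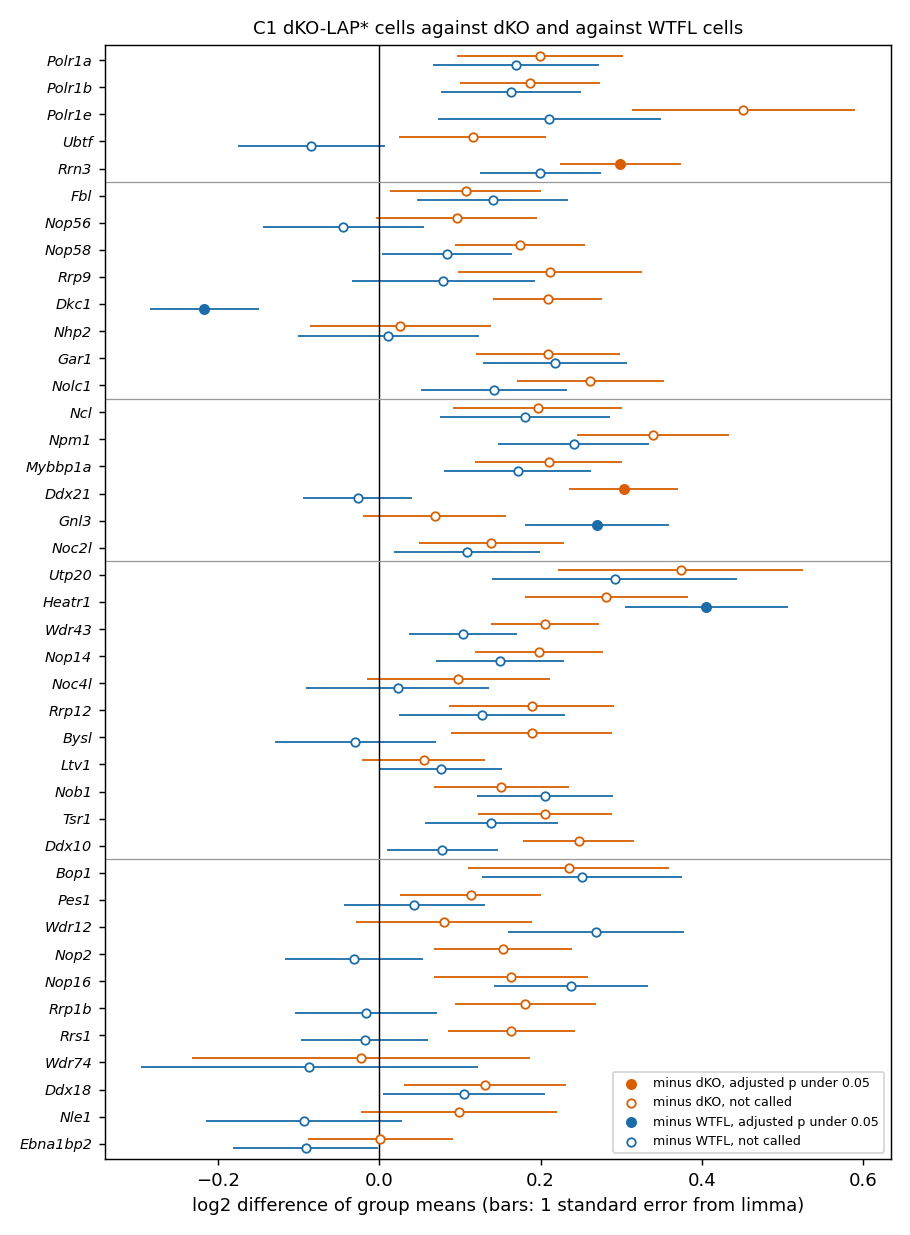
The log2 difference (x axis, with 1 SE from limma) of dKO-LAP* cells from dKO cells (orange) and from WTFL cells (blue) in C1 for each of the 41 genes (y axis), with filled points at an adjusted p under 0.05. Of the orange points 40 lie above zero, and Ddx21 and Rrn3 are filled.

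The 2 genes were Ddx21 and Rrn3. Ddx21 was at 3538, 3761 and 3684 normalized reads in dKO and at 4359, 4563 and 4627 in dKO-LAP* cells, which did not overlap (log2 difference 0.30 ± 0.07, limma adjusted p = 0.018). Its level in dKO-LAP* cells overlapped that of WTFL cells (log2 difference -0.03 ± 0.07). Rrn3 (chr16:13780708-13814839, plus strand) was at 1061, 1022 and 1021 in dKO and at 1156, 1319 and 1352 in dKO-LAP* cells, with a log2 difference of 0.30 ± 0.07 (limma adjusted p = 0.034). Ddx21 was called in 2 and Rrn3 in 1 of the 6 fits without a library, and Rrn3 was not called without the filter, with only the groups compared or with the replicate number as a block. Npm1 was at 17506, 16403 and 17595 in dKO and at 22355, 21742 and 21055 in dKO-LAP* cells, and these groups did not overlap, but limma did not call it (log2 difference 0.34 ± 0.09, adjusted p = 0.052). edgeR and DESeq2 called it, together with the helicase gene Ddx10.

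Against WTFL cells, Heatr1 and Gnl3 were higher in dKO-LAP* cells (2 of 41, 4.88%, against 14.2% of all genes) and Dkc1 was lower (1 of 41, 2.44%, against 18.3%). Heatr1 was called in each of the 6 fits without a library, Gnl3 in 3 and Dkc1 in 2 of them. The higher count was 1 without WTFL library 2 or dKO-LAP* library 2 and 7 without WTFL library 3. Heatr1 was at 1869, 1553 and 1900 normalized reads in WTFL and at 2377, 2219 and 2432 in dKO-LAP* cells, a log2 difference of 0.41 ± 0.10 (limma adjusted p = 0.0056). Dkc1 was at 2584, 2430 and 2467 in dKO-LAP* cells, below every WTFL library and above every dKO library of C1 (log2 difference from WTFL -0.22 ± 0.07, limma adjusted p = 0.022, and from dKO 0.21 ± 0.07, limma adjusted p = 0.1). The groups did not overlap in 11 genes that were higher (26.8%, against 18.7% of all genes) and in Dkc1, which was lower (1 gene, 2.44%, against 22.2%). The median difference from WTFL cells was 0.11, with 30 genes above zero. It was 0.21 with 39 genes above zero under quantile normalization and 0.18 with 36 genes above zero under scaling to total reads. The median of all genes under these scalings was 0.08 and 0.06. The count of higher genes rose to 13 under quantile normalization and to 8 under scaling to total reads, with Dkc1 no longer called, and the share of higher calls among all calls moved from 43.6% to 56.9% and 54.9%.

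A further 102 genes of ribosome biogenesis, listed by role apart from the 41, were counted in the same fits. In C1, 4 were higher (3.92%, against 17.1% of all genes) and 14 lower (13.7%, against 19.9%) in dKO cells, with a median log2 difference of -0.08. The lower count was 7 or 8 without WTFL library 1 or 3 or dKO library 1 or 3. In C2, 32 were higher (31.4%, against 17.4%) and 3 lower (2.94%, against 20.1%), with a median of 0.15 and 80.4% above zero, and the higher count was 20 without dKO library 2. In dKO-LAP* against dKO cells, 2 were higher (1.96%, against 1.43%) and 0 lower (against 3.03%), with a median of 0.12. Against WTFL cells, 13 were higher (12.7%, against 14.2%) and 3 lower (2.94%, against 18.3%), with a median of 0.05. The changes of largest size in C1 were those of Nop10, a small H/ACA protein, at 0.80 ± 0.15 (limma adjusted p = 0.00044), of Shq1, an assembly chaperone of the H/ACA particle with Dkc1, at -0.48 ± 0.09 (limma adjusted p = 0.00069), and of the helicase gene Ddx24 at -0.44 ± 0.10 (limma adjusted p = 0.0019). In C2 they were those of Nvl, an ATPase of large-subunit assembly, at 1.03 ± 0.07 (limma adjusted p = 4.3e-08), and of the processome genes Wdr75 at 0.83 ± 0.08 (limma adjusted p = 1.2e-06) and Wdr3 at 0.82 ± 0.07 (limma adjusted p = 5.1e-07). The 2 genes higher in dKO-LAP* than in dKO cells were Brix1 and Urb1, both of large-subunit assembly, at 0.47 ± 0.09 and 0.37 ± 0.10 (limma adjusted p = 0.0051 and 0.044). Brix1 was called in each of the 6 fits without a library and Urb1 in 0 of them.

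Myc rose in C2 dKO cells as well. It was at 2882, 2807 and 2369 normalized reads in C2 WTFL and at 3777, 3802 and 4001 in C2 dKO cells, without overlap (log2 difference 0.53 ± 0.12, limma adjusted p = 0.0032). In C1 it was at 3491, 3315 and 2701 in WTFL and at 2991, 3440 and 2857 in dKO cells, which overlapped (log2 difference -0.03 ± 0.12). The difference between the clones was 0.56 ± 0.17 (limma adjusted p = 0.025), a call that was lost under quantile normalization, under scaling to total reads and in 6 of the 12 fits without a library. Myc was not called by the test between dKO-LAP* and dKO cells (log2 difference 0.01 ± 0.12). Mycn was at 0 in all 6 WTFL libraries, at 9.06, 13.6 and 12.4 in C1 dKO cells and at 41.9, 9.72 and 18.2 in C2 dKO cells. Among the factors that share Max or Mlx as a partner, the repressor gene Mxd1 fell by 0.89 in C2 (SE 0.25, limma adjusted p = 0.01), with a wide spread in WTFL cells (773.8, 1588 and 1609), and had a difference of 0.30 ± 0.25 in C1. Mxd1 was called in C2 in 3 of the 6 fits without a library. Mxd4 rose and Mlx fell in both clones, and these calls held in every fit without a library. Mga fell in C1, with its call lost in the fit of only the groups compared, and Mxi1 fell in C2, with its call kept in 1 of the 6 fits without a library. The part of Myc and of these factors in the shift of the set was not tested.

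Proliferation genes were counted beside the set. Of 20 such genes, 0 rose (against 17.1% of all genes) and 8 fell (against 19.9%) in C1 dKO cells, with a median log2 difference of -0.15. In C2 dKO cells, 3 rose (against 17.4%) and 8 fell (against 20.1%), with a median of -0.16. The 3 that rose in C2 were the replication helicase genes Mcm3, Mcm5 and Mcm6, and among those that fell in both clones were the mitotic genes Ccnb1, Aurkb, Plk1 and Bub1. In dKO-LAP* against dKO cells, limma called 0 of them in either direction.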

How the data were processed

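RNA-seq was analysed in 15 libraries, 3 in each of 5 groups. From stranded libraries the authors sequenced read pairs, which STAR 2.5.3a aligned to mm10, HTSeq 0.10.0 counted per gene and DESeq2 1.26.0 normalized (versions per the submitters' processing notes). The deposited signal is therefore a normalized read count, a count divided by the size factor of its library. The annotation and the strand setting of the counting were not given in the sources used here. Of 53384 rows, 53379 name a gene, and 5 rows name none (22.4% to 26.2% of reads) and were left out. There were 3 columns that matched no sample and were not used. In each library 100% of the values were whole multiples of 1 step within 0.1 reads, which recovered the reads (in WTFL library 1 of C2, whose size factor was close to 1, the step came from larger values). Exon lengths and positions came from GENCODE vM21 (mm10).

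The 12673 genes that reached 10 normalized reads in 3 or more libraries were fitted as log2(normalized reads + 1) by limma 3.58.1 (R 4.3.3), with group means from the 15 libraries together and a trend in the prior variance. Fold changes are on this log2 scale. Alternatives were pseudocounts of 0.1 and 5, no filter, quantile normalization, scaling to total reads, TMM factors, edgeR 4.0.16 and DESeq2 1.42.0 on the recovered reads, a block for the replicate number, fits restricted to the compared groups, a log2 fold limit of 1 and leaving out each library. The fits were tested on simulated data. numpy 2.4.6, pandas 2.3.3 and, for plots, matplotlib 3.10.9 were used under Python 3.11.15.

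The text names genes called in both clones, the 5 largest differences between clones, genes called in dKO-LAP* against dKO cells, the gene of each role with the most reads per kb, up to 3 called further genes with the largest changes in each clone and in dKO-LAP* against dKO cells and the called Myc network genes, and, beyond this rule, genes whose values fill out a role, among them Dkc1. The 41 genes and the lists were chosen with earlier results of these data known. Some marker genes of other cell types are not reported here.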

Additional observations from a re-analysis of the deposited data

Results flagged for a closer look

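The change with loss of Cebpa and Cebpb differed between the clones, by limma's test of the difference itself, for 18 of the 41 genes and for 38 of the 102 further genes (32.4% larger and 4.90% smaller in C2, against 15.1% and 14.3% of all genes), of which those named in the text are given here. Each value is the C2 log2 difference minus the C1 log2 difference. Among the genes of RNA polymerase I transcription it was 0.46 for Polr1a and 0.48 for Ubtf, and among the snoRNP genes it was 0.98 for Nop58 and 0.57 for Dkc1. Among the nucleolar proteins it was 0.69 for Ncl, 0.37 for Npm1 and 1.17 for Ddx21, the only gene called in opposite directions in the clones. Among the small-subunit genes it was 1.22 for Utp20, 0.46 for Heatr1, 0.96 for Wdr43, 0.36 for Nob1 and 0.30 for Ddx10. Among the large-subunit genes it was 0.95 for Wdr12, 0.41 for Nop2, 0.40 for Rrp1b, 0.97 for Rrs1, 0.75 for Ddx18 and 0.52 for Nle1. Of the further ribosome biogenesis genes, Wdr3 had 0.96, Wdr75 0.92, Nvl 1.10, Urb1 0.51, Shq1 0.42 and Nop10 -0.62. In the Myc network, Myc had 0.56, Mga 0.51 and Mxd1 -1.19, and of the proliferation genes Mcm3 had 0.63, Mcm6 0.78, Top2a 0.43 and Rrm2 -0.82. The adjusted p of these genes ran from 3.9e-07 for Ddx21 to 0.046 for Npm1, and 9 of the 18 values of the set kept their call under 10 alternative settings and without each of the 12 libraries in turn, while a log2 fold limit of 1 left 2.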

How the results depend on the processing

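Counts of called genes are given, with no call reversed. In C1 dKO against WTFL cells, the higher count of the 41 genes was 2 under quantile normalization and 1 under scaling to total reads, and the lower count was 0 with a log2 fold limit of 1. In C2 the higher count was 12 under scaling to total reads and 2 with the fold limit. For the difference between clones it was 9 under quantile normalization, 9 under total reads and 2 with the fold limit. For dKO-LAP* against dKO cells the higher count was 1 without the filter, 4 each with TMM factors, edgeR and DESeq2, and 0 with the fold limit. For dKO-LAP* against WTFL cells it was 13 under quantile normalization, 8 under total reads, 5 with TMM factors, 1 with only the groups compared, 4 each with edgeR and DESeq2, and 0 with the fold limit, and the lower count was 0 under quantile normalization, total reads, only the groups compared and the fold limit.

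Of the 102 further genes, in C1 9 and 8 were higher under quantile normalization and total reads, 8 were lower without the filter and 5 under each of both scalings, and 0 were called with the fold limit. In C2 6 were lower under total reads, and 1 was higher and 0 lower with the fold limit. In dKO-LAP* against dKO cells the higher count was 1 without the filter, under total reads, with only the groups compared and with the replicate block, 6 with DESeq2 and 0 with the fold limit.

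Without each library in turn, the 41 genes gave 0 to 1 higher and 2 to 6 lower in C1, 13 to 21 higher and 0 to 1 lower in C2, 11 to 19 higher for the difference between clones, 0 to 2 higher in dKO-LAP* against dKO cells, and 1 to 7 higher and 0 to 1 lower against WTFL cells. In C1 the lower count was 4 without WTFL library 2 and 6 without dKO library 2, and the higher count 1 without WTFL library 3. The count for the difference was 11 without C2 WTFL library 2. In dKO-LAP* against dKO cells 0 were higher without dKO libraries 1 or 3 or dKO-LAP* libraries 2 or 3, and 1 without dKO library 2. Against WTFL cells 1 was higher without WTFL library 2 or dKO-LAP* library 2 and 7 without WTFL library 3, and Dkc1 was not called without WTFL libraries 1 or 3 or dKO-LAP* libraries 2 or 3. The further genes gave 3 to 5 higher and 7 to 16 lower in C1 (8 without WTFL library 1, and 7 without WTFL library 3 or dKO libraries 1 or 3), 20 to 35 higher and 2 to 3 lower in C2 (20 without C2 dKO library 2) and 1 to 2 higher in dKO-LAP* against dKO cells. The cause of these moves was not tested.

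The replicate numbers were not taken to pair the libraries. Same-numbered libraries correlated at -0.17 to 0.30 in their deviations from the group means, and differently numbered libraries at -0.25 to 0.21. These ranges overlapped, and 3 libraries per group cannot exclude a pairing. The replicate block therefore counts only as an alternative. With it, 15 of the 41 genes were higher in C2, 2 lower in C1, 18 higher for the difference between clones and 2 higher in dKO-LAP* against dKO cells (Ddx21 and Npm1, in place of Ddx21 and Rrn3), and it moved no count of the 41 genes by over 1.5 times.

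Limits are that each clone is 1 line per genotype with 3 libraries, that the strand setting of the counting is unknown, and that the error was large for Wdr74 (54.5 to 110.8 normalized reads), whose C2 log2 difference of 0.45 ± 0.21 missed the threshold (limma adjusted p = 0.11) although the groups did not overlap.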

Other observations

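Across the 41 genes, the C2 log2 difference between dKO and WTFL cells had a Pearson's r of 0.50 and a Spearman's rho of 0.43 with the log2 of the annotated exon length, and an r of 0.02 with the log2 level per kb. In C1 the r with exon length was 0.08. The genes are read from the same libraries and are not independent, so these values are a description. Libraries of a group differed along the whole set. In C2 the WTFL library 2 had the lowest level of its group for 35 of the 41 genes and the dKO library 1 for 33, and in C1 the WTFL library 3 had the highest for 31 and the dKO library 2 for 28.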
